A study of Enchytraeus albidus with 42 samples.

Results

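The 319 transcripts described here are the non-control sequences of a custom array for the potworm *Enchytraeus albidus* whose names begin with P and a plate number and carry neither the metal nor the pesticide library prefix. They are 319 of 1035 transcripts on the array, beside 345 of the metal library, 198 of the pesticide library, 171 assembled contigs and 2 with other names. Each name gives a plate, a well and the end from which the clone was read. Plates 1 to 5 contributed 62, 73, 62, 51 and 71 members, of which 226 were read from the T7 end and 93 from the SP6 end. T7 and SP6 are phage promoters that commonly flank a cloned insert. No member shared plate and well with another, so no clone appeared from both ends under its name. Members were chosen by name alone, and no expression value entered the choice.

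Adult worms with a developed clitellum, the glandular girdle of mature worms, were kept for 2 days at 20 °C in vessels of 25 g soil. The groups were dimethoate EC10, EC20, EC50 and EC90 at 0.1, 0.5, 2 and 25 mg/kg, atrazine EC10 to EC90 at 0.2, 0.5, 3 and 50 mg/kg, carbendazim EC10 to EC90 at 0.05, 0.1, 0.5 and 3 mg/kg, the solvent control that received acetone, and the water control. Each EC names the concentration expected to lower reproduction by that percentage, so equal EC labels do not mean equal concentrations. Dimethoate was set against the water control, atrazine and carbendazim against the solvent control, with 3 biological replicates and 1 array each in all 14 groups. An array carried the pooled whole worms of 1 vessel. The labels put 15 worms in a vessel and the methods another number. In whole-body RNA, fewer cells of a type and less RNA per cell cannot be told apart.

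Dimethoate is an organophosphate insecticide that inhibits cholinesterase at nerve synapses. Atrazine is a herbicide that blocks electron transport in photosystem II of plants, which worms lack. Carbendazim is a fungicide that binds tubulin and hinders the assembly of microtubules. Among the members, 49 had a protein name, which came from a match of their change profiles to the study's list of named transcripts. That list was selected on these same arrays, so counts among the named members are no independent evidence, and the remaining members are given by their clone names only.

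Signals were scaled by a median shift to 1 reference array and are given as log2 values, and no single transcript's level is set against another's. Of the 319 members, 241 were well above background on all 42 arrays, 63 on some and 15 on none. Among the 716 other transcripts the same counts were 474, 208 and 34. The median member lay at 8.70 log2 units over the arrays and the median other transcript at 7.43. The sets hold different transcripts, so these medians and counts are not read as a difference in RNA amount. Saturation touched 8 members, 1 of them on all 42 arrays. Of the read ends, 72 of 93 SP6 reads (77.4%) and 169 of 226 T7 reads (74.8%) were above background on every array. Within groups the SD of a member had a median of 0.40 log2 units and ran from 0.11 to 4.14, against a median of 0.42 and a range of 0.11 to 2.82 for the other transcripts. As a check of the whole-body label, 29 of 33 named muscle transcripts (actin, myosin heavy chain, tropomyosin and troponin t) were well above background on all arrays and the dimmest on 0, and the 2 transcripts named for giant hemoglobin and its linker were so on 40 and 42 arrays.

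The arrays were spread over 8 slides and 16 scans, and slide and treatment were partly confounded. Dimethoate EC10 replicate 1 and EC20 replicate 2, which shared a scan, stood apart from their groups. Their deviations from the group means had an SD over the members of 0.886 and 0.828, and the next array had 0.685. These arrays belong to the low dimethoate groups, but they enter the spread that all comparisons share. Counts of called members without them are given beside those with all 42 arrays. Without them the median within-group SD over all 1035 transcripts was 0.320, against 0.413 with all arrays. The shares of all transcripts called without them are not given, so no count without them is read as particular to the members.

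Each array was shifted by the median, over all transcripts, of its log2 differences from the median array, which holds the medians of the changes near 0. The members' median change against control lay between -0.12 and 0.04 log2 units over the 12 treatment comparisons, while the median of all 1035 transcripts lay between -0.06 and 0.05. The lowest member median was at atrazine EC90 and the highest at atrazine EC10. Scaling to the 75th percentile moved the median of all transcripts 0.29 at atrazine EC50 and -0.28 in the solvent against the water control. The members' medians then ran from -0.29 at dimethoate EC50 to 0.20 at carbendazim EC20, with -0.33 in the solvent against the water control. The sign of the members' median at atrazine EC50 and EC90 and at carbendazim EC10, EC50 and EC90 turned positive under that scaling, so no direction is read from them. In the array medians of the members, the means of the 14 groups ran from 8.54 at dimethoate EC20 to 8.81 at dimethoate EC50.

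**Figure D1:**
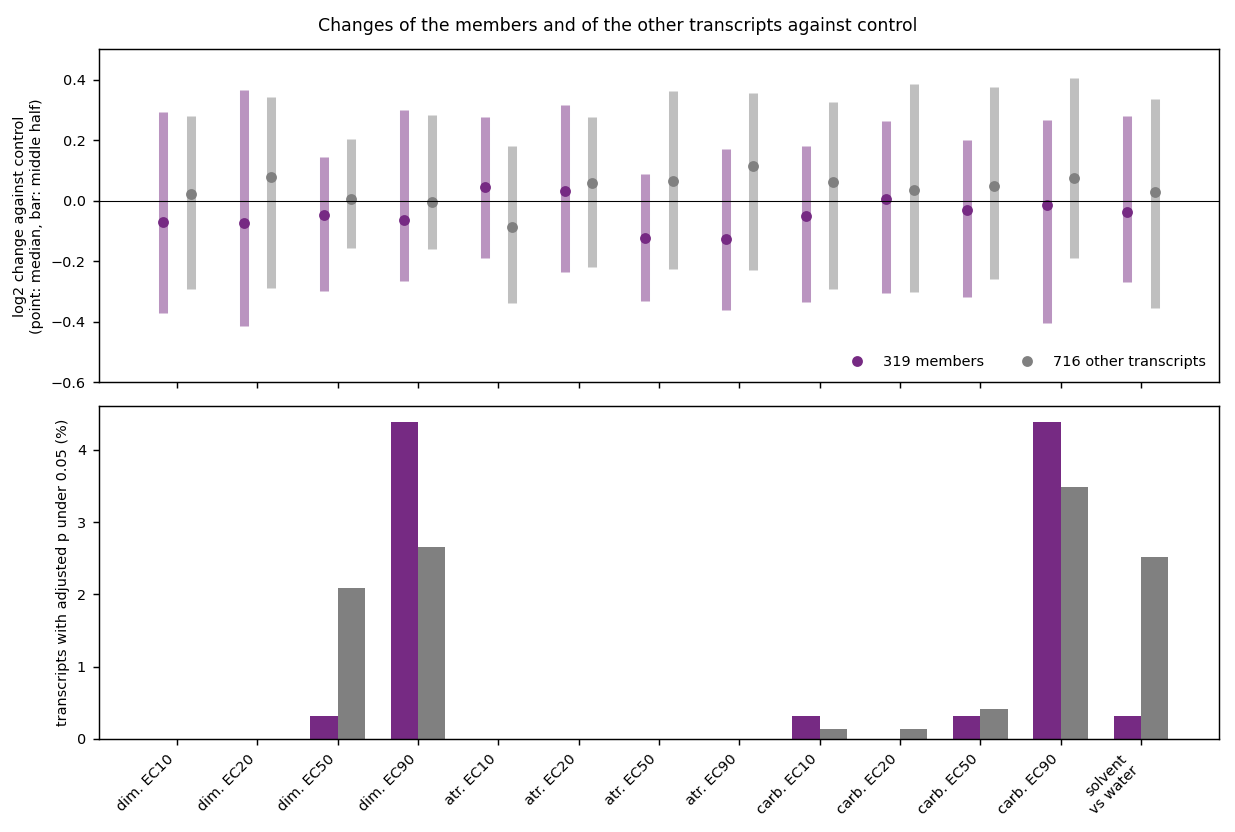
Upper panel, median (point) and interquartile range (bar) of the log2 change against control for the 319 members and the 716 other transcripts in 13 comparisons; lower panel, percentage of each with a Benjamini-Hochberg adjusted limma p under 0.05. The member medians stay between -0.12 and 0.04, and calls reach 4.39% of members at both dimethoate EC90 and carbendazim EC90.

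With all 42 arrays, most calls among the members fell at the highest concentration of dimethoate and carbendazim. At dimethoate EC90, 14 members passed an adjusted p of 0.05, 12 higher and 2 lower, against 3.19% of all transcripts (2.9% higher and 0.29% lower). At carbendazim EC90, 14 members passed, 6 higher and 8 lower, against 3.77% of all transcripts (1.93% higher and 1.84% lower). A single member was called at dimethoate EC50 (all transcripts 1.55%), carbendazim EC50 (0.386%), carbendazim EC10 (0.193%) and in the solvent against the water control (1.84%, with 1.64% higher). No member was called by limma at dimethoate EC10 and EC20 or at carbendazim EC20, where 0.0966% of all transcripts were. At an unadjusted p under 0.05 these comparisons held 22, 54 and 18 members, where 7.25, 13.1 and 10.5% of all transcripts passed. At dimethoate EC50, dimethoate EC90, carbendazim EC10, EC50 and EC90 the unadjusted counts were 29, 39, 15, 16 and 62 members, against 7.92, 9.76, 10.7, 9.86 and 17.1% of all transcripts. The test named in the methods, after adjustment, called 0 members at dimethoate EC10, EC20 and carbendazim EC20. Without the 2 arrays of the deviating scan limma called 0, 0, 10 and 19 members at dimethoate EC10, EC20, EC50 and EC90, 8, 15, 15 and 56 at the same steps of carbendazim, 8 at atrazine EC90, 0 at the lower atrazine steps and 9 in the solvent against the water control. The counts at EC90 as well as below it therefore depend on these 2 arrays. Those at dimethoate EC10 and EC20 and at the lower atrazine steps stayed at 0. Of the 319 members, 24 (7.52%) were called for at least 1 pesticide, against 7.05% of all transcripts. They were 6, 3, 4, 3 and 8 on plates 1 to 5, and 9 of these were SP6 and 15 T7 reads. Each of the calls against a control had arrays that did not overlap between its groups, as did 24.6% of all transcripts at dimethoate EC90 and 29% at carbendazim EC90.

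Superoxide dismutase, the enzyme that turns superoxide into hydrogen peroxide and oxygen, had the smallest adjusted p of all members at dimethoate EC90. P4-4E_T7_821254 read 11.88, 10.93 and 11.69 on the dimethoate EC90 arrays, against 9.05, 9.40 and 9.28 on the water control arrays. All 3 exposed arrays lay above all 3 controls, by 4.78-fold on average. The difference was called, with a log2 change 2.26 ± 0.30 (SE, n = 3 arrays each, limma adjusted p = 1.06e-05). At dimethoate EC10, EC20 and EC50 its changes were -0.04, -0.03 and 0.87, none of them called. The EC10 and EC20 arrays overlapped the water controls and the EC50 arrays, at 9.98, 10.27 and 10.08, lay above them. The change per concentration step was 0.54 ± 0.07 (SE, limma adjusted p = 1.12e-06). With slide as a block the EC90 call held, at an adjusted p of 0.00440. Atrazine EC90 and carbendazim EC90 arrays read 9.54, 9.03 and 9.01 and 9.69, 9.28 and 10.19, against 9.23, 8.86 and 9.93 on the solvent controls, and these groups overlapped.

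The largest rise was that of P5_C3_T7_1329809, which has no protein name. Its arrays read 7.63, 7.17 and 7.45 at dimethoate EC90, against 4.46, 4.64 and 4.49 in the water control. Every exposed array was higher than every control array, and the log2 change 2.88 ± 0.48 (SE, n = 3 arrays each, limma adjusted p = 0.000239) is 7.38-fold. At dimethoate EC50 its arrays read 5.62, 6.19 and 5.93, and the change of 1.38 was not called (adjusted p = 0.214). P1_C11_SP6_1371392 followed with 11.01, 10.56 and 11.00 at EC90, against 9.10, 9.01 and 8.46 in the water control, log2 change 2.00 ± 0.39 (SE, n = 3 arrays each, limma adjusted p = 0.00118). The EC90 arrays again stood clear of the controls. Dimethoate EC10 replicate 1 and EC20 replicate 2, the arrays of the deviating scan, were the lowest of all for P1_C11_SP6_1371392, and on both P5_C3_T7_1329809 was not well above background. These 2 members were each other's closest in profile, with a Pearson r of 0.86 over the 42 arrays, and superoxide dismutase was the third closest to P1_C11_SP6_1371392 at 0.85. Those coefficients describe arrays that share slides and include the 2 deviating arrays, without which the first is 0.79 over 40 arrays.

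P3_D4_SP6_1371437 read 12.43, 11.95 and 12.21 at dimethoate EC90, against 10.70, 10.74 and 10.31 in the water control. Its groups did not overlap, and the change was 1.62 ± 0.25 (SE, limma adjusted p = 0.000133). P1_E11_T7_1328882 was a bright transcript, at 15.77, 16.16 and 15.90 on EC90 arrays, 2 of them saturated, against 14.75, 14.50 and 14.17 on water control arrays. Its change of 1.47 ± 0.21 (SE, limma adjusted p = 2.3e-05) counts those spots at their saturated value. It was the only member called at dimethoate EC50, where the arrays read 15.94, 15.84 and 15.61 and the change was 1.32 ± 0.21 (SE, limma adjusted p = 0.000338). The EC50 and EC90 arrays overlapped, and the arrays of EC10 and EC20 lay between 14.22 and 15.09.

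The same transcript was the only member called between the controls with all arrays in the median scaling. Without the 2 arrays of the deviating scan 9 members were called there, after quantile normalization 5 and at the 75th percentile scaling 4. Solvent control arrays of P1_E11_T7_1328882 read 15.48, 15.53 and 15.29, against 14.75, 14.50 and 14.17 in the water control. All acetone arrays were higher, and the change was 0.96 ± 0.21 (SE, limma adjusted p = 0.00737). The call was lost without water control replicate 3 (adjusted p = 0.104), after normexp background correction (0.0875) and with slide as a block (0.901). No slide held arrays of both controls, so solvent and slide cannot be told apart in that comparison. At carbendazim EC90, where it read 16.07, 15.84 and 15.98, the change against the solvent control was 0.53 and was not called (adjusted p = 0.152).

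Among the falls at dimethoate EC90, P4_5E_T7_1329752 read 9.22, 9.59 and 9.72, against 11.57, 11.90 and 11.61 in the water control. No EC90 array reached a control array, and the level was 4.54-fold lower, with a log2 change -2.18 ± 0.39 (SE, n = 3 arrays each, limma adjusted p = 0.000511). A member matching a calcium-dependent protein kinase, an enzyme that phosphorylates proteins when calcium rises and is best known from plants and protists, was the other called fall. P3_A9_SP6_1371430 read 9.63, 9.24 and 9.72, against 10.49, 10.64 and 10.62 in the water control, log2 change -1.05 ± 0.21 (SE, n = 3 arrays each, limma adjusted p = 0.00170). Its groups did not overlap either, although with slide as a block the adjusted p was 0.0798. The EC50 arrays were below and the EC20 arrays above the water controls. It lay at 11.33, 11.37 and 10.77 at EC20 and 9.78, 9.87 and 10.08 at EC50, with a change per step of -0.31 (limma adjusted p = 5.06e-05).

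A member matching eukaryotic peptide chain release factor subunit 1, which recognises stop codons and ends translation, rose at dimethoate EC90. P5_B6_SP6_1371477 read 6.80, 6.10 and 6.83, against 5.13, 5.30 and 5.44 in the water control, log2 change 1.29 ± 0.31 (SE, n = 3 arrays each, limma adjusted p = 0.00987). The call was lost without water control replicate 1 (adjusted p = 0.0584), without dimethoate EC90 replicate 1 (0.0887) or 3 (0.0836), after quantile normalization (0.0549) and with slide as a block (0.431). The remaining 6 called rises at dimethoate EC90 had no protein name and changes of 0.82 to 1.47. Among them P1_F10_T7_1328876, with a change of 1.33, was well above background on 1 of the 3 water control arrays, so no fold is given for it. On the slide that held all 3 dimethoate EC90 arrays and water control replicate 3, all 14 differences had the sign of the fit and sizes of 0.89 to 2.92. With slide as a fixed block 8 of the 14 stayed called. Without the 2 arrays of the deviating scan 19 members were called at EC90 and 10 at EC50. Quantile normalization split the EC90 calls into 10 higher and 4 lower, against 12 and 2 in the median scaling.

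**Figure D2:**
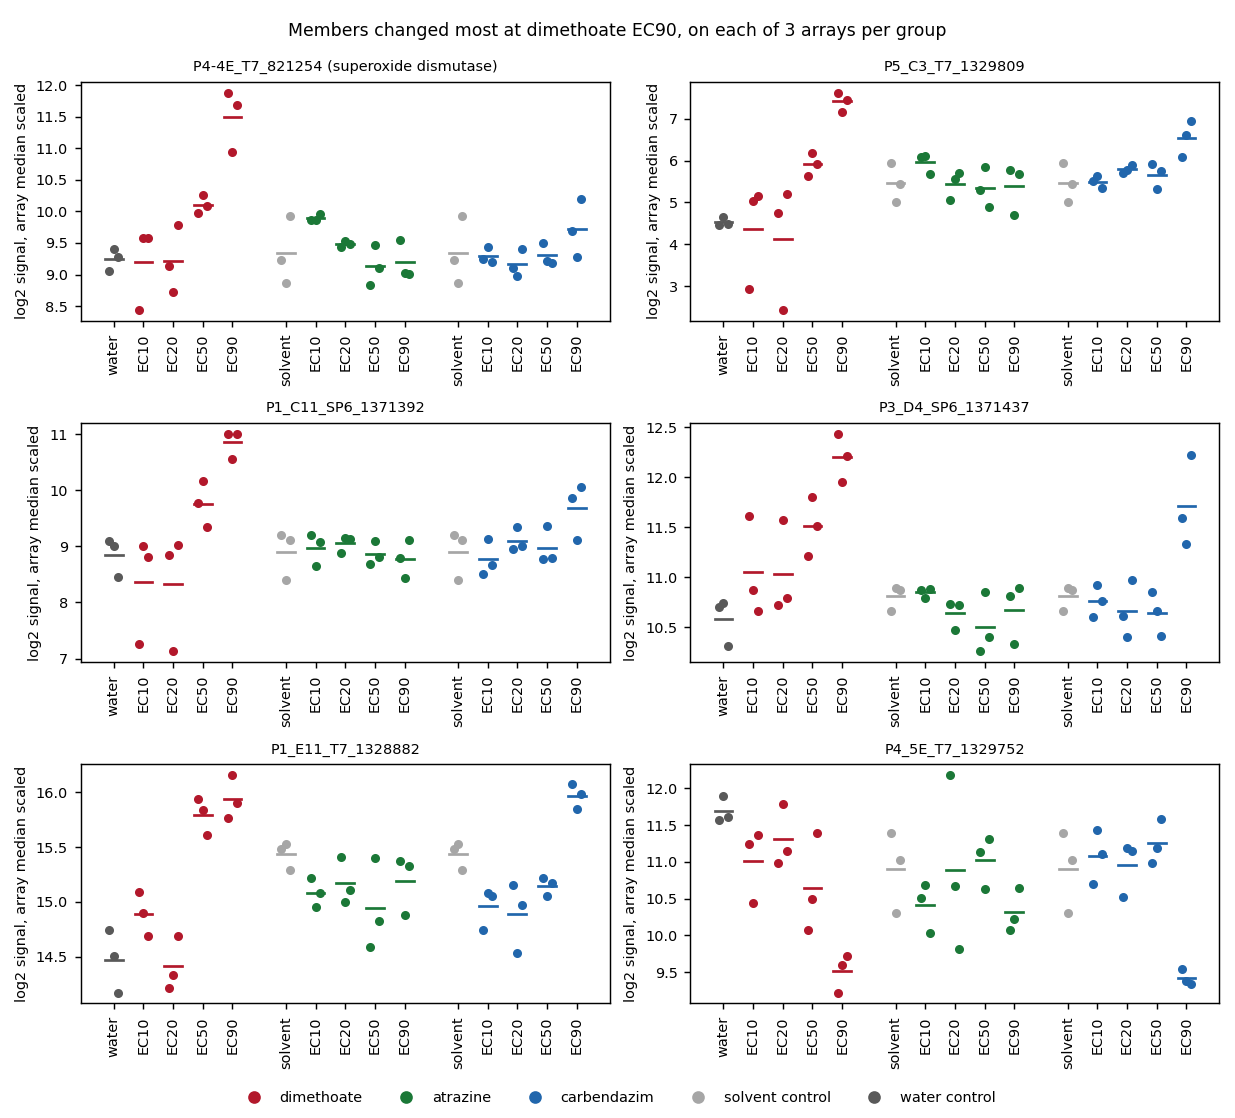
Median-scaled log2 signal (each panel with its own axis) of 6 members on each array of each group, concentrations running upward from the control, with the group mean as a bar. In 5 panels the 3 dimethoate EC90 arrays lie above the 3 water controls, and in the P4_5E_T7_1329752 panel at 9.22, 9.59 and 9.72 they lie below them.

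Over the dimethoate concentrations as an ordered series, 19 members changed per step, 16 upward and 3 downward, where 4.73% of all transcripts were called. The 3 members with the smallest adjusted p were P1_E11_T7_1328882 (0.38 per step), superoxide dismutase and P5_C3_T7_1329809 (0.73 per step). Leaving out the 2 arrays of the deviating scan gave 30 trends. With slide as a block 4 trends stayed called, and P5_C3_T7_1329809 then had an adjusted p of 0.0876. Scaling to the 75th percentile gave 12 upward and 8 downward trends, and quantile normalization 15 and 7.

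Carbendazim EC90 gave 8 falls and 6 rises in the median scaling. P2_A9_T7_1328949 read 9.75, 9.97 and 9.83, against 12.35, 12.11 and 12.14 in the solvent control. Its arrays were 5.10-fold lower with no overlap, log2 change -2.35 ± 0.42 (SE, n = 3 arrays each, limma adjusted p = 0.000987). Up to carbendazim EC50 no array of that pesticide fell below 11.89. Elsewhere it came near its carbendazim EC90 values on the 2 arrays of the deviating scan alone. Dimethoate EC10 replicate 1, at 10.15, lay above those values and EC20 replicate 2, at 9.87, among them. Whether these readings share a source was not tested. Without those 2 arrays the change kept its adjusted p under the threshold, at 1.75e-12, and with slide as a block it was 0.0916.

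P5_E4_T7_1329817 was the one member called at 2 carbendazim concentrations. It read 8.38, 7.73 and 8.55 at EC50 and 7.69, 8.00 and 7.65 at EC90, against 9.73, 9.80 and 9.34 in the solvent control. Both groups lay wholly below the controls, while EC10 and EC20 arrays, at 9.18, 9.49 and 9.34 and 9.42, 9.98 and 9.38, overlapped them. The EC90 change was -1.84 ± 0.30 (SE, limma adjusted p = 0.000321), and that at EC50 was -1.40 ± 0.30 (SE, limma adjusted p = 0.0247). The EC50 call was lost without solvent control replicate 1 (adjusted p = 0.0763) or 2 (0.123) and without carbendazim EC50 replicate 2 (0.382) or 3 (0.0505). Its closest member in profile, with r = 0.89 over 42 arrays, was P1_E1_SP6_1371394, named for the uncharacterized protein c1orf189. That transcript read 5.81, 6.29 and 5.98 at EC90, against 7.46, 6.93 and 7.53 in the solvent control, log2 change -1.28 ± 0.35 (SE, n = 3 arrays each, limma adjusted p = 0.0286). Its EC90 arrays all lay below its solvent control arrays, and the call was lost without any one of 4 of the 6 arrays compared (adjusted p 0.0906 to 0.107).

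The transcripts P4_5E_T7_1329752, P4_A9_SP6_1371450 and P1_H2_T7_1328823, without protein names, also fell at carbendazim EC90. P4_5E_T7_1329752, the largest called fall at dimethoate EC90, read 9.54, 9.39 and 9.34, against 11.39, 10.31 and 11.03 in the solvent control, log2 change -1.49 ± 0.39 (SE, n = 3 arrays each, limma adjusted p = 0.0234). P4_A9_SP6_1371450 read 9.43, 9.16 and 9.90, against 10.88, 11.17 and 10.57, with a change of -1.38 (limma adjusted p = 0.00791). P1_H2_T7_1328823 read 12.60, 12.70 and 12.29, against 14.05, 13.69 and 13.69, with a change of -1.28 (limma adjusted p = 0.00730). None of the 3 overlapped with the solvent controls. P4_5E_T7_1329752 lost its call without any one of 5 of the 6 arrays compared (adjusted p 0.0532 to 0.119), P4_A9_SP6_1371450 without solvent control replicate 2 (0.0642) or carbendazim EC90 replicate 2 (0.0648), and P1_H2_T7_1328823 without carbendazim EC90 replicate 3 (0.0553). The calcium-dependent protein kinase match read 9.49, 9.37 and 9.22, against 10.09, 10.76 and 10.03, with a change of -0.94 (adjusted p = 0.00791).

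Of the rises at carbendazim EC90, aquaporin 1, a membrane channel for water, was the named member that stood highest above its other groups. P5_F9_SP6_1372042 read 11.01, 11.09 and 11.43, against 9.77, 10.32 and 10.04 in the solvent control, log2 change 1.13 ± 0.26 (SE, n = 3 arrays each, limma adjusted p = 0.00791). No other array of the series reached its EC90 values, the next being atrazine EC20 replicate 1 at 10.40. The call was lost without solvent control replicate 1 (adjusted p = 0.0579) or carbendazim EC90 replicate 3 (0.0570). The release factor match P5_B6_SP6_1371477 read 6.44, 6.46 and 6.79, against 5.12, 4.95 and 5.78, with a change of 1.28 ± 0.31 (SE, limma adjusted p = 0.0159). That change was 2.42-fold, and the call was lost without solvent control replicate 1 (0.0627) or 2 (0.101) or carbendazim EC90 replicate 3 (0.0801).

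P5_B4_T7_1329814, with no protein name, read 7.76, 8.15 and 8.06, against 6.82, 6.69 and 7.03 in the solvent control, log2 change 1.14 ± 0.26 (SE, n = 3 arrays each, limma adjusted p = 0.00742). It kept its call without any single array. P3_D4_SP6_1371437 and P1_H12_T7_1328892 rose by 0.90 (adjusted p = 0.0372) and 0.86 (adjusted p = 0.0234). Neither overlapped with its controls, but the first lost its call without any one of 5 of the 6 arrays compared (adjusted p 0.0620 to 0.237) and the second without 3 of them (adjusted p 0.107 to 0.168). The other 2 called members, P5_5C_T7_1329823 and P2_5D_T7_1328922, lay at the threshold, with adjusted p of 0.0490 and 0.0499.

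Slides and single arrays moved the count of carbendazim EC90 calls. With slide as a fixed block none of the 14 stayed called, and 62 members had an unadjusted p under 0.05 without the block. On the slide that held carbendazim EC90 replicates 1 and 3 beside solvent control replicate 1, the 14 differences kept the sign of the fit, with sizes of 0.64 to 2.56. Leaving out single arrays gave 4 to 9 calls, the fewest without carbendazim EC90 replicate 3, and 56 members were called without the 2 arrays of the deviating scan. The division into 6 higher and 8 lower also moved with the processing, to 12 and 4 after normexp background correction, 12 and 11 after quantile normalization and 8 and 7 at the 75th percentile.

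**Figure D3:**
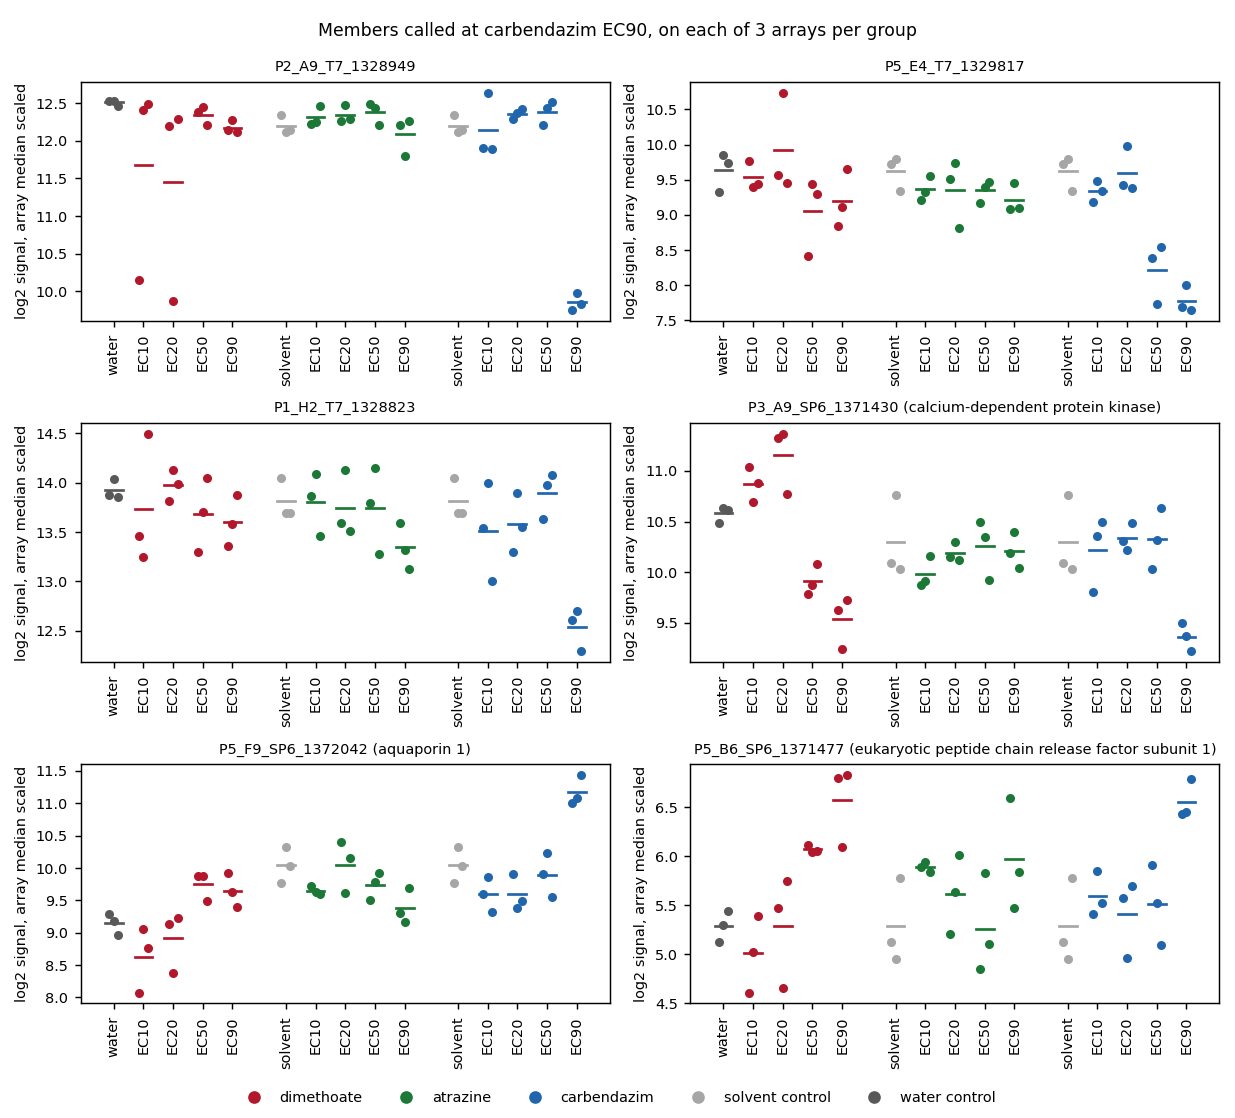
Median-scaled log2 signal (each panel with its own axis) of 6 members called at carbendazim EC90, on each array of each group with the group mean as a bar. P2_A9_T7_1328949 lies at 9.75, 9.97 and 9.83 at carbendazim EC90 and comes near these values on 1 array each of dimethoate EC10 and EC20.

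In the fit of all arrays a single further member was called at the lower carbendazim concentrations, whereas 8, 15 and 15 members were called at EC10, EC20 and EC50 without the 2 arrays of the deviating scan. P3_B9_T7_1329712 read 5.39, 5.46 and 5.17 at carbendazim EC10, against 6.06, 5.84 and 6.75 in the solvent control, log2 change -0.87 ± 0.18 (SE, n = 3 arrays each, limma adjusted p = 0.0150). Its groups did not overlap, and at EC20, EC50 and EC90 the changes were -0.58, -0.55 and -0.56, none called. The call at EC10 was lost without solvent control replicate 3 (adjusted p = 0.0976), without carbendazim EC10 replicate 1 (0.0617) or 3 (0.241) and at the 75th percentile scaling (0.278). No carbendazim EC10 array shared a slide with a solvent control. Over the ordered concentrations 7 members changed per step, 3 upward and 4 downward, with 2.03% of all transcripts called, and 51 did without the 2 arrays of the deviating scan. The 7 were led by P5_E4_T7_1329817 (-0.48 per step, adjusted p = 3.54e-05), P2_A9_T7_1328949 (-0.45, 0.00731) and aquaporin 1 (0.26, 0.00960). From EC10 to EC90 the changes of aquaporin 1 were -0.45, -0.45, -0.15 and 1.13, and those of P2_A9_T7_1328949 were -0.06, 0.16, 0.19 and -2.35. Of these changes only those at EC90 were called, so neither slope is read as a graded change. Aquaporin 1 lost its trend call without solvent control replicate 1 (0.0536) or carbendazim EC90 replicate 3 (0.0554). None of the 7 stayed called with slide as a block.

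Dimethoate and carbendazim shared no control array, so their EC90 comparisons can be set side by side. Of the 14 members called in each, 5 were called in both, 35.7% of either list, whereas 6 of all 1035 transcripts were, 18.2% of the dimethoate and 15.4% of the carbendazim calls. The 5 were P1_H12_T7_1328892, P3_D4_SP6_1371437 and the release factor match, higher in both, and P4_5E_T7_1329752 and the calcium-dependent protein kinase match, lower in both. All 14 members called at dimethoate EC90 had a change of the same sign at carbendazim EC90, and 8 of them an unadjusted p under 0.05. So had 32 of the 33 transcripts called at dimethoate EC90 over the whole array (97.0%), and 66.5% of all members, called or not. The shared sign is therefore not particular to the members. After normexp background correction 13 of the 14 had the same sign. At atrazine EC90, 8 of the 14 members had the sign of the dimethoate change, against 51.5% of all transcripts called at dimethoate EC90 and 57.7% of all members. That count moved between 6 and 11 with the scaling. The shares were not tested against each other.

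**Figure D4:**
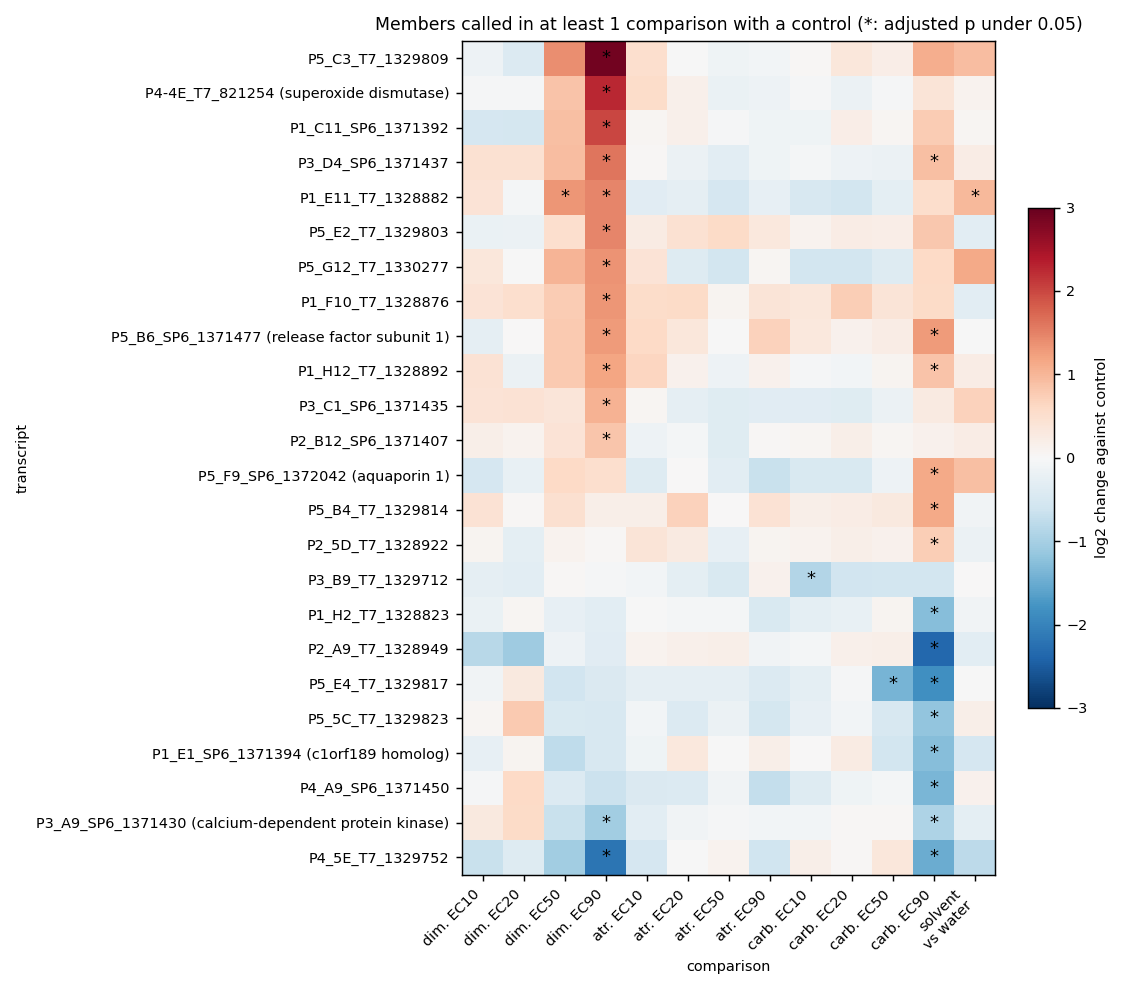
Log2 change against the matching control (colour, limited to 3 in either direction) of the 24 members called for at least 1 pesticide, in 12 treatment comparisons and the solvent against the water control; an asterisk marks an adjusted p under 0.05. The EC90 columns of dimethoate and carbendazim hold 14 asterisks each, and no asterisk falls in the 4 atrazine columns.

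Tests of the pesticides against each other took the difference of the EC90 changes. They called 1 member for dimethoate minus carbendazim (all transcripts 0.193%) and 7 for dimethoate minus atrazine (1.06%). For carbendazim minus atrazine 11 members were called (2.8%), 3 of them higher and 8 lower under carbendazim. Without the 2 arrays of the deviating scan the same tests called 7, 15 and 29 members. Dimethoate changes are measured from the water control and atrazine and carbendazim changes from the solvent control, so the first 2 kinds of difference also hold the difference between the controls. The change of superoxide dismutase was higher at dimethoate EC90 than at atrazine EC90 by 2.40 ± 0.42 (SE, limma adjusted p = 0.00113) and than at carbendazim EC90 by 1.87 ± 0.42 (adjusted p = 0.0479). The second difference lost its call without any one of 9 of the 12 arrays compared (adjusted p 0.0852 to 0.213) and at the 75th percentile scaling (0.179). The dimethoate EC90 change exceeded the atrazine EC90 change by 1.71 for P1_E11_T7_1328882 (adjusted p = 0.00113) and by 1.75 for P3_D4_SP6_1371437 (0.00850). Their atrazine EC90 changes, -0.24 and -0.14, were not called, and the solvent control of P1_E11_T7_1328882 lay 0.96 above the water control. The call of P3_D4_SP6_1371437 was lost without atrazine EC90 replicate 2 (0.0521). All 7 such differences were positive.

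Because both used the same solvent controls, the difference of the carbendazim and atrazine changes is that between their EC90 arrays. Aquaporin 1 read 11.01, 11.09 and 11.43 at carbendazim EC90, against 9.30, 9.16 and 9.70 at atrazine EC90. The arrays did not overlap and differed by 1.79 ± 0.26 (SE, limma adjusted p = 7.03e-05), 3.46-fold. P2_A9_T7_1328949 and P5_E4_T7_1329817 were lower under carbendazim by 2.24 and 1.43 log2 units (differences -2.24 and -1.43, adjusted p = 0.00213 and 0.00437). P5_E4_T7_1329817 lost that call without atrazine EC90 replicate 2 (0.0519). No slide held EC90 arrays of both pesticides, and with slide as a block none of the differences between pesticides stayed called.

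No member was called at any atrazine concentration, and none of the 1035 transcripts was (0% at EC90). At an unadjusted p under 0.05 limma gave 10, 16, 16 and 23 members at EC10, EC20, EC50 and EC90, against 3, 5.22, 10 and 8.79% of all transcripts, and the test named in the methods gave 0 after adjustment. Without the 2 arrays of the deviating scan 8 members were called at EC90. The largest difference was that of P2_F8_T7_1328946, which read 4.82, 3.22 and 3.28 at EC90, well above background on 2 of these 3 arrays, against 8.76, 10.37 and 11.68 in the solvent control. Its arrays did not overlap, but the change of -6.49 ± 2.03 (SE, limma adjusted p = 0.306) was not called in the fit that shares the spread of all 14 groups. At dimethoate EC90, for instance, it read 11.18, 5.12 and 6.30, and in the water control 5.73, 6.31 and 9.00. On average its solvent control lay 3.25 above its water control (limma adjusted p = 0.600, not called). The changes from the solvent control were below 0 at all other atrazine and all carbendazim concentrations too. No fall particular to atrazine EC90 is therefore read from it. Fitted on the atrazine EC90 and solvent control arrays alone, the same difference had an adjusted p of 0.00351. That fit leaves out the other groups, and the within-group SD over all 14 was 2.65.

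P4_5A_T7_1329750, whose protein is not named, had the second largest positive difference at atrazine EC90. It read 6.07, 5.25 and 6.30 at EC50 and 6.28, 6.14 and 6.36 at EC90, against 5.51, 4.60 and 5.91 in the solvent control. The EC90 arrays lay above all controls, yet the change of 0.92 ± 0.25 was not called (SE, limma adjusted p = 0.201). Its change per step, 0.26 ± 0.06 (SE, adjusted p = 0.0145), was 1 of 2 member trends called, with 1.35% of all transcripts, while 23 were called without the 2 arrays of the deviating scan. The other was P1_B12_T7_1328886, matching a regulatory light chain, whose change per step was -0.19 (adjusted p = 0.0463). The first was lost without solvent control replicate 2 or atrazine EC90 replicate 2 or 3 (adjusted p 0.0539 to 0.162), and the second without any one of 10 of the 15 arrays fitted (adjusted p 0.0503 to 0.263). Neither stayed called with slide as a block. The other largest negative differences at atrazine EC90 were -1.84 for P3_5D_T7_1329685 and -1.67 for P1_G2_T7_1328822 (adjusted p = 0.761 and 0.623). P2_D4_SP6_1371414 and P5_C11_T7_1329869 were well above background on 2 and 1 of the 3 EC90 arrays and on no solvent control array, so no fold is given for them (adjusted p = 0.333 and 0.720).

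Of the 49 named members, 5 (10.2%) were called in at least 1 treatment comparison, against 7.52% of all members, and the function lists were drawn from names that the study had selected on these arrays. None of the 7 members of the respiratory chain and ATP synthase, which make ATP in mitochondria, was called. Their median change was -0.24 at dimethoate EC90, -0.45 at atrazine EC90 and -0.45 at carbendazim EC90, with 5, 6 and 6 of the 7 changes below 0. All transcripts had medians of -0.02, 0.04 and 0.03 in those comparisons. Of the 7, P2_E11_T7_1328966 was well above background on no control array. Its changes in those comparisons, 0.87, 0.79 and 0.42, therefore carry no level, but the medians and sign counts of the list include it. All 7 changes were above 0 at dimethoate EC10 and EC20, with medians of 0.38 and 0.39, and 2 of 7 at dimethoate EC50, with a median of -0.16. The EC10 and EC20 groups each hold an array of the deviating scan, so no direction is read from them. All 7 were also above 0 in the solvent against the water control, with a median of 0.37. Below EC90 the medians were -0.47, -0.31 and -0.33 at atrazine EC10, EC20 and EC50 and -0.43, -0.30 and -0.33 at carbendazim EC10, EC20 and EC50. The atrazine and carbendazim changes are all measured from that solvent control, and no direction is read from them. An atp synthase e chain member, P2_E9_T7_1328952, read 13.22, 13.20 and 13.43 at carbendazim EC90, against 13.94, 14.85 and 13.66 in the solvent control. Its groups did not overlap and its change was -0.87 (limma adjusted p = 0.152). Without the 2 arrays of the deviating scan its adjusted p was 0.00292. A further member of the same name, P3_G9_T7_1329717, changed by -0.85 there and followed it over the 42 arrays with r = 0.999. The pair is not 2 independent observations, but the medians and sign counts of the list include both. The largest unadjusted signals of the list otherwise were 0.75 for nadh:ubiquinone ndufc2 at dimethoate EC20 and -0.36 for a coiled-coil-helix mitochondrial protein at carbendazim EC50 (adjusted p = 0.372 and 0.349). Without single arrays the change of ndufc2 there ran from 0.12 to 1.18.

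Of the 5 ribosome and translation members, the release factor match rose at dimethoate EC90 and carbendazim EC90 and no other was called. At the same EC90 comparisons the list medians were 0.03 and -0.27. The ribosomal protein transcripts P2_E7_T7_1328937 (s7) and P2_H3_T7_1328913 (l37a), structural parts of the ribosome, had their smallest p at 0.57 in dimethoate EC20 and -0.71 in atrazine EC90 (adjusted p = 0.394 and 0.563). Fcf1, a factor that processes ribosomal RNA in yeast, changed by 0.72 at dimethoate EC20 (adjusted p = 0.357). Without single arrays the dimethoate EC20 changes of s7 and fcf1 ran from 0.04 to 0.85 and from 0.16 to 1.09. That group holds an array of the deviating scan. Of the 3 defence members, superoxide dismutase was called. The lectins, sugar-binding proteins, were not. P1_A2_T7_1328817, matching a c-type lectin, read 8.16, 7.44 and 7.07 at carbendazim EC90, against 9.28, 9.38 and 8.53 in the solvent control. Its groups did not overlap, and its change of -1.51 ± 0.54 was not called (SE, limma adjusted p = 0.114). The galactose-binding lectin P1_C3_SP6_1371389 changed by 0.76 at dimethoate EC20 (adjusted p = 0.357), and by 0.27 to 1.11 without single arrays.

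None of the 5 metabolic members was called. The sec14-like member P3_C9_T7_1329713, of a family that binds and moves lipids, read 8.63, 8.61 and 8.13 at dimethoate EC90, against 9.39, 9.13 and 9.37 in the water control. These groups were apart, with a change of -0.84 ± 0.26 (SE, limma adjusted p = 0.0793), and the adjusted p was 0.0223 after quantile normalization and 0.0267 at the 75th percentile. The short-chain dehydrogenase P1_A8_T7_1328860, of a family of oxidoreductases, changed by 0.88 at carbendazim EC90 (adjusted p = 0.152, and 0.00176 without the 2 arrays of the deviating scan). The prostaglandin d2 match changed by 0.58 at dimethoate EC20, where its p was smallest, and was not called. Without single arrays that change ran from 0.21 to 0.87. The monosaccharide-transporting atpase was not well above background on any water control array and on 1 of 3 dimethoate EC90 arrays, so it has no level there. The proteasome member P2_5B_T7_1328920, part of the complex that degrades proteins, changed by 0.80 at carbendazim EC90 (adjusted p = 0.152). The chaperonin P3_D10_T7_1329721, which helps proteins fold, changed by -0.89 at dimethoate EC50 (adjusted p = 0.598). Among the 27 members with other names, aquaporin 1, the calcium-dependent protein kinase match and the c1orf189 match were those called.

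Some members varied widely between the replicates of a group. P2_B7_T7_1328934 had the widest spread, with a within-group SD of 4.14 log2 units. It was well above background on 18 of 42 arrays, 17 of them between 8.52 and 10.37 and 1 at 4.67, and not so on 24 arrays, at 1.01 to 2.20. In no group was it above background on all 3 arrays, and dimethoate EC90 was the one group in which it was so on none. In the water control 1 of 3 arrays measured it, and the dimethoate EC90 arrays overlapped that group, so no fold is given (limma adjusted p = 0.984). At carbendazim EC90 it read 8.75, 1.12 and 9.40, against 1.49, 8.68 and 1.96 in the solvent control (adjusted p = 0.787). Since each array holds several worms of 1 vessel, these values do not tell whether single worms lacked the transcript.

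P3_5D_T7_1329685 ranged from 2.76 to 13.31 with a median of 11.01, and was well above background on 41 of the 42 arrays. P2_F8_T7_1328946 ranged from 2.87 to 12.07 and was well above background on 38. P1_B11_T7_1328879 and P2_D7_T7_1328936 had within-group SDs of 2.38 and 1.84. None of these 5 passed in any comparison with a control (smallest adjusted p 0.284). In all, 16 members (5.02%) and 23 other transcripts (3.21%) had a within-group SD above 1 log2 unit. At dimethoate EC90 and carbendazim EC90 the members with the largest differences regardless of the test included P3_5D_T7_1329685 at dimethoate EC90 (-2.18), and P2_B7_T7_1328934 (2.38), P2_F8_T7_1328946 (-4.23), P2_D7_T7_1328936 (1.94) and P1_B11_T7_1328879 (1.31) at carbendazim EC90. In all of these the groups overlapped. On the solvent control arrays P2_B7_T7_1328934, P2_D7_T7_1328936 and P1_B11_T7_1328879 were well above background on 1, 1 and 2 of 3.

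**Figure D5:**
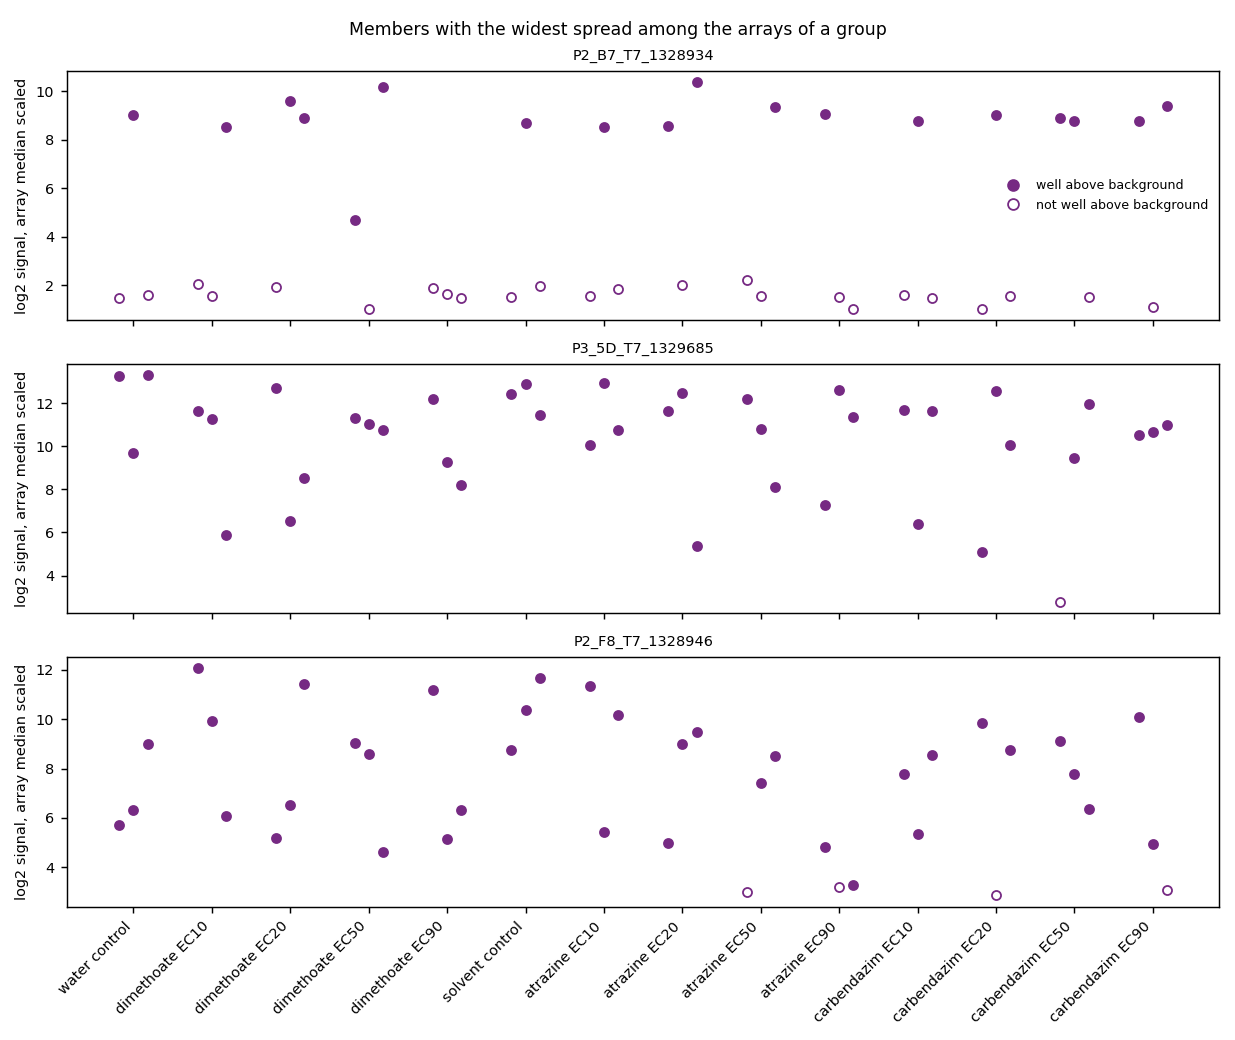
Median-scaled log2 signal of the 3 members with the widest within-group spread on each of 42 arrays (filled, well above background; open, not). P2_B7_T7_1328934 was well above background on 18 arrays, in 13 of the 14 groups and in none of them on all 3 arrays.

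Some members varied together within groups. Among the 241 members well above background on all 42 arrays, 194 of 28920 pairs (0.671%) had a Pearson r above 0.9 for their deviations from the group means, while the median pair had 0.09. Joined at an r above 0.95, 47 of all 319 members formed 12 groups, of which 9 with 27 members were well above background on all arrays. The other 3 groups, with 20 members, were so on at most 4 arrays each and are background readings, which are not described further. The largest measured group held 11 unnamed members, which were lowest on dimethoate EC10 replicate 1, at -1.58 on average from their own medians. Within it every pair had an r of at least 0.84, or 0.75 without the 2 arrays of the deviating scan. The others were 8 pairs, among them the ribosomal proteins s7 and l37a and the 2 atp synthase e chain members. None of the 27 was called against a control. Whether linked members share sequence was not tested.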

How the data were processed

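The deposited files were 1-colour Agilent scanner tables, 1 for each of 42 arrays. Their intensity values, as deposited by the authors, were background-subtracted processed signals from Agilent Feature Extraction 10.5.1.1, not yet scaled between arrays, and the depth of such values is set by the number of arrays and not by a read count. The value table of the series held the same signals.

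Control spots and outlier spots were left out (421 to 1070 of 15208 spots an array), and the 14 to 15 spots of a transcript were averaged before log2. To scale the arrays, the median of each one's log2 differences from the median array was subtracted, a shift of -1.29 to 0.50. Groups came from the labels, with 3 arrays each. One limma 3.58.1 model (R 4.3.3) with a mean for each of 14 groups was fitted on 1035 transcripts, without a filter or block, and p-values were adjusted by Benjamini-Hochberg over all of them. A call is an adjusted p under 0.05. Trends took the control and the 4 concentrations as equal steps, and a called trend does not mean a change at every step. A spot set counted as well above background or saturated where most spots of the transcript were marked so. The scripts were tested on simulated data. Tables were joined with pandas 2.3.3 under Python 3.11.15.

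Protein names came from a supplementary list and were joined by matching its 12 log2 ratios of each named transcript to ratios computed from the arrays. All 225 names found a match that differed by at most 0.00131, and the next transcript differed by at least 0.0371. Named members were, for each comparison with a control, up to 5 called rises and falls, the 3 largest rises and falls at each EC90, up to 3 calls of each trend and each difference between pesticides, up to 4 for each list of protein names, and the closest profiles. Members and lists were chosen with earlier results of these data known. Alternatives covered background correction (normexp with an offset of 50, on the median spot signal, since the mean was not used here), scaling, spot averaging, a filter on dim transcripts (well above background on at least 3 arrays), replicate and slide blocks, the arrays in the fit and the test. The listed ratios served only to join the names. Probe sequences were not used here.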

Additional observations from a re-analysis of the deposited data

Results flagged for a closer look

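Members whose EC90 change differed between pesticides by the test of the difference itself, limma with adjustment over 1035 transcripts, are given here as log2 differences with their adjusted p. The change at dimethoate EC90 minus that at carbendazim EC90 was 1.87 for P4-4E_T7_821254 (superoxide dismutase), adjusted p = 0.0479. For dimethoate minus atrazine the differences were 1.71 for P1_E11_T7_1328882, adjusted p = 0.00113, 2.40 for P4-4E_T7_821254 (superoxide dismutase), adjusted p = 0.00113, 1.75 for P3_D4_SP6_1371437, adjusted p = 0.0085, 2.96 for P5_C3_T7_1329809, adjusted p = 0.0218, 1.38 for P3_C1_SP6_1371435, adjusted p = 0.043, 1.24 for P1_B12_T7_1328886 (the regulatory light chain match), adjusted p = 0.046, and 2.13 for P1_C11_SP6_1371392, adjusted p = 0.046. All of these differences were positive. Dimethoate changes are measured from the water control and the others from the solvent control, so the difference between the controls enters them.

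For carbendazim minus atrazine, members higher under carbendazim were 1.79 for P5_F9_SP6_1372042 (aquaporin 1), adjusted p = 7.03e-05, 1.04 for P3_D4_SP6_1371437, adjusted p = 0.018, and 0.77 for P1_E11_T7_1328882, adjusted p = 0.0315. Members lower under carbendazim were -2.24 for P2_A9_T7_1328949, adjusted p = 0.00213, -1.43 for P5_E4_T7_1329817, adjusted p = 0.00437, -1.39 for P4_B9_T7_1329771, adjusted p = 0.00456, -1.46 for P1_E1_SP6_1371394 (the c1orf189 match), adjusted p = 0.0154, -0.85 for P3_A9_SP6_1371430 (the calcium-dependent protein kinase match), adjusted p = 0.0213, -1.41 for P2_C3_SP6_1371408, adjusted p = 0.0213, -0.99 for P4_5A_T7_1329750, adjusted p = 0.0218, and -0.69 for P3_B9_T7_1329712, adjusted p = 0.0268. With slide as a fixed block no difference between pesticides stayed called. No slide held EC90 arrays of different pesticides, so pesticide and slide cannot be told apart in these differences.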

How the results depend on the processing

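The counts of called members in the median scaling were 1 at dimethoate EC50, 14 at dimethoate EC90, 1 at carbendazim EC10, 1 at carbendazim EC50, 14 at carbendazim EC90, 1 for the solvent against the water control, 19 for the dimethoate trend, 2 for the atrazine trend, 7 for the carbendazim trend, 1 for the dimethoate minus carbendazim difference, 7 for the dimethoate minus atrazine difference and 11 for the carbendazim minus atrazine difference, and 0 in the remaining comparisons. Under a filter on dim transcripts, which kept 961 transcripts and 294 members, no count moved by over 1.5 times. Scaling to the 75th percentile gave 3 at dimethoate EC50, 0 at carbendazim EC10, 0 at carbendazim EC50, 4 for the solvent against the water control, 4 for the atrazine trend, 0 for the dimethoate minus carbendazim difference and 3 for the dimethoate minus atrazine difference. Quantile normalization gave 4 at dimethoate EC50, 1 at carbendazim EC20, 23 at carbendazim EC90, 5 for the solvent against the water control and 0 for the atrazine trend. Normexp background correction gave 4 at dimethoate EC50, 0 at carbendazim EC50, 0 for the atrazine trend and 4 for the dimethoate minus atrazine difference. Averaging spots as log2 values gave 1 for the atrazine trend and 0 for the dimethoate minus carbendazim difference. Fitting only the groups compared gave 3 at dimethoate EC50, 2 at atrazine EC90, 0 at carbendazim EC10, 0 at carbendazim EC50, 0 for the atrazine trend, 30 for the carbendazim trend and 6 for the carbendazim minus atrazine difference. Without dimethoate EC10 replicate 1 and EC20 replicate 2 the counts were 10 at dimethoate EC50, 8 at atrazine EC90, 8 at carbendazim EC10, 15 at carbendazim EC20, 15 at carbendazim EC50, 56 at carbendazim EC90, 9 for the solvent against the water control, 30 for the dimethoate trend, 23 for the atrazine trend, 51 for the carbendazim trend, 7 for the dimethoate minus carbendazim difference, 15 for the dimethoate minus atrazine difference and 29 for the carbendazim minus atrazine difference.

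Slide as a random block, with a correlation of 0.0467, gave 2 at dimethoate EC50, 1 for the atrazine trend and 0 for the dimethoate minus carbendazim difference. Slide as a fixed block gave 8 at dimethoate EC90, 0 at carbendazim EC10, 0 at carbendazim EC50, 0 at carbendazim EC90, 0 for the solvent against the water control, 4 for the dimethoate trend, 0 for the atrazine trend, 0 for the carbendazim trend, 0 for the dimethoate minus carbendazim difference, 0 for the dimethoate minus atrazine difference and 0 for the carbendazim minus atrazine difference. An unadjusted limma p under 0.05 held 22, 54, 29 and 39 at dimethoate EC10, EC20, EC50 and EC90. It held 10, 16, 16 and 23 at the same steps of atrazine and 15, 18, 16 and 62 at those of carbendazim. For the solvent against the water control it held 16, where 11.2% of all transcripts passed. The dimethoate, atrazine and carbendazim trends had 59, 31 and 48, against 14.6, 17.1 and 14.2% of all transcripts. The dimethoate minus carbendazim difference had 19, against 6.28% of all transcripts. The dimethoate minus atrazine difference had 29 (7.73%) and the carbendazim minus atrazine difference 55 (12.7%). Shares of all transcripts called are not given for the other alternative settings. No count under those settings is therefore read as particular to the members. The methods' t-test without adjustment gave 5 at dimethoate EC10, 6 at dimethoate EC20, 74 at dimethoate EC50, 70 at dimethoate EC90, 23 at atrazine EC10, 10 at atrazine EC20, 9 at atrazine EC50, 24 at atrazine EC90, 15 at carbendazim EC10, 32 at carbendazim EC20, 35 at carbendazim EC50, 61 at carbendazim EC90 and 32 for the solvent against the water control. After Benjamini-Hochberg adjustment the methods' t-test gave 0 at dimethoate EC50, 1 at dimethoate EC90, 2 at carbendazim EC10, 0 at carbendazim EC50, 1 at carbendazim EC90 and 0 for the solvent against the water control.

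Leaving out single arrays gave 0 to 1 at dimethoate EC20, 1 to 1 at dimethoate EC50, 10 to 15 at dimethoate EC90, 0 to 1 at atrazine EC90, 0 to 1 at carbendazim EC10, 0 to 1 at carbendazim EC50, 4 to 9 at carbendazim EC90, 0 to 2 for the solvent against the water control, 11 to 24 for the dimethoate trend, 0 to 5 for the atrazine trend, 2 to 8 for the carbendazim trend, 0 to 1 for the dimethoate minus carbendazim difference, 2 to 7 for the dimethoate minus atrazine difference and 3 to 9 for the carbendazim minus atrazine difference, and 0 to 0 in the other comparisons. The lowest count at carbendazim EC90, 4, came without carbendazim EC90 replicate 3. Same-numbered replicates did not deviate together, as 13 of 39 pairs had a correlation over 0.1 (range -0.28 to 0.29) and no comparison had all its pairs over it, so the numbers were not used as a pairing. With the replicate number as a block the counts of called members were 1 for the atrazine trend and 4 for the dimethoate minus atrazine difference, and the other counts stayed within 1.5 times, with 14 at dimethoate EC90 and 13 at carbendazim EC90.

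Among the values of named members under the alternatives, 1043 kept their direction and side of the threshold, 142 lost a call, 13 gained one and 5 turned round. The turned values, none of them called, were -0.50 for P1_B11_T7_1328879 at carbendazim EC90 without solvent control replicate 3 (1.31 with it), 0.0896 and 0.15 for P2_B7_T7_1328934 at dimethoate EC90 with slide as a fixed block and without water control replicate 2 (-2.36 in the median scaling), -0.12 for P2_D7_T7_1328936 at carbendazim EC90 with slide as a fixed block (1.94 without), and -0.40 for P5_C11_T7_1329869 at atrazine EC90 without atrazine EC90 replicate 1 (0.91 with it). Without single arrays those of P1_B11_T7_1328879, P2_B7_T7_1328934 and P5_C11_T7_1329869 reached 2.87, -3.63 and 1.80 at the other end. Each of these comparisons held an array not well above background. The cause of these shifts was not tested. With 3 arrays per group the precision rests on the number of arrays. Slide and treatment were partly confounded, and no slide held both controls, so a slide block removes part of the treatment contrast. For 15 members no array was well above background, and their changes carry no level. Saturated arrays bound the brightest members from below.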
